A study of Mus musculus with 20 samples.

Results

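The Fc receptor family of the mouse was examined in leukocytes of the eye through 5 genes, Fcgr1, Fcgr3, Fcgr4, Fcgr2b and Fcer1g. The genes were taken by name from the 19990 genes with a transcript in the deposited retina table and the 19705 in the eye table, and each matched exactly 1 row of either table. Cells carrying CD45, a surface protein of haematopoietic cells, were sorted from eyes of C57BL/6 mice aged 8 weeks. The 20 libraries of 192 wells comprised 4 each from control retina without a lesion, retina 3 days after laser lesioning (day 3), retina 7 days after laser lesioning (day 7), cornea and ciliary body, the last 2 tissues also without a lesion. The labels call the lesioned libraries CNV, short for choroidal neovascularization. The labels do not say which mouse a library came from, so the p-values below measure the spread between pairs of libraries, which may be technical.

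Fc receptors bind the constant part of antibodies and so link antibody-coated particles to phagocytes. In the mouse, Fcgr1, Fcgr3 and Fcgr4 encode activating receptors for IgG, of which the Fcgr1 product binds single IgG molecules with high affinity and the others mainly bind immune complexes. Their ligand-binding chains signal through the common gamma chain encoded by Fcer1g, which carries an activation motif (ITAM) that recruits the kinase Syk. Fcgr2b encodes the inhibitory receptor, whose own inhibitory motif (ITIM) recruits the phosphatase encoded by Inpp5d. Microglia, the resident macrophages of the retina, and the macrophages of other tissues carry activating and inhibitory receptors together.

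The promoters of the 4 ligand-binding receptors are shown because in microglia Fcgr4 differed from control at both days and Fcgr2b between the days, and Fcgr1 and Fcgr3 differed between macrophages and microglia. Each is the 250 bases before the annotated start, read in the direction of the gene, from RefSeq on GRCm38.p6, in which all 5 genes matched. Fcgr4 lies at chr1:171018676-171018925 on the plus strand, Fcgr3 at chr1:171059404-171059653 on the minus strand, Fcgr2b at chr1:170976072-170976321 on the minus strand and Fcgr1 at chr3:96293970-96294219 on the minus strand. Capitals mark TTCCTC or its reverse complement GAGGAA, letters found in binding sites of the myeloid factor PU.1, and TTCNNNGAA, the form bound by STAT factors.
Fcgr4: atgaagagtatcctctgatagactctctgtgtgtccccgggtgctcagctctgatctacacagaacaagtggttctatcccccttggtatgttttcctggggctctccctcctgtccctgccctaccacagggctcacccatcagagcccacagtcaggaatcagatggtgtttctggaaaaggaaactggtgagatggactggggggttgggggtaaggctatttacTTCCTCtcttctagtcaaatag
Fcgr3: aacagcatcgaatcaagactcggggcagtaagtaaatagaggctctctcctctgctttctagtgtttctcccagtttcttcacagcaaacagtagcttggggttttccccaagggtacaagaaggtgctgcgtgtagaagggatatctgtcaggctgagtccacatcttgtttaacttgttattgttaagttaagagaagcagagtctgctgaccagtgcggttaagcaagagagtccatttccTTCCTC
Fcgr2b: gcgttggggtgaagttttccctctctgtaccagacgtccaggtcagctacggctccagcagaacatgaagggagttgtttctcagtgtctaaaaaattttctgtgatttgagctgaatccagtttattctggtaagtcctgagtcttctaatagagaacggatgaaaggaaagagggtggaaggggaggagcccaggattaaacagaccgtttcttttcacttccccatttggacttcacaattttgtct
Fcgr1: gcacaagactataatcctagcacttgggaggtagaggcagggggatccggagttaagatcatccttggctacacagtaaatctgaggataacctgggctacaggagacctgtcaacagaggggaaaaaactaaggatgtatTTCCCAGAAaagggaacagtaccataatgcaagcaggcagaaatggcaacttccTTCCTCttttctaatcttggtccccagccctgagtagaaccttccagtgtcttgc
TTCCTC stood 22 bases before the start in Fcgr4, 6 in Fcgr3 and 55 in Fcgr1, counted to its first base. Fcgr3 has another annotated start, and the same TTCCTC stood 15 bases before it. TTCCCAGAA, a match to TTCNNNGAA that overlaps no other match, stood 109 bases before the start of Fcgr1. Neither motif was found in the windows of Fcgr2b and of Fcer1g, which lies at chr1:171234350-171234599 on the minus strand. Among 32851 promoter windows of the same length, 23.3% held TTCCTC or GAGGAA and 7.02% held TTCNNNGAA, searched on both strands.

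Transcripts were counted by molecular identifiers at their 3′ ends (mCEL-Seq2), so levels were not divided by gene length. Each level is scaled to 1000000 counted molecules (CPM) of the genes in the deposited retina or eye table. Genes absent from these made up 37.2% (retina) and 38.9% (eye) of the transcripts of annotated wells and are not in the CPM total. Library totals over all genes ran from 371329 to 3325825 transcripts. The authors' annotation named 829 wells, 511 in the retina table and 429 in the eye table, with 111 in both. The retina classes used here are microglia (120 cells in control, 81 at day 3, 113 at day 7), dendritic cells (82 at day 3, 26 at day 7) and a joint class in which monocytes, lymphocytes and granulocytes are held together (46 at day 3, 41 at day 7). The eye table adds 121 macrophages of the cornea, 111 of the ciliary body and 73 cells of the joint class in the ciliary body. All 9 microglia markers were detected in microglia of each retina group, and all 9 dendritic cell markers in dendritic cells of both days. Detection alone does not set the classes apart. In control microglia 8 of 9 dendritic cell markers were detected, and in dendritic cells of both days 8 of 9 microglia markers. By summed level at day 3, microglia markers held 13233 to 15441 CPM in microglia and 588 to 1013 in dendritic cells. Dendritic cell markers held 127.8 to 128.2 and 2270 to 2573 CPM in the same order. Levels are means ± SD of 2 library pairs, the libraries that share a prefix in their names. Since the authors' classes come from clusters of the same cells, levels are compared between classes as a description.

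Microglia had the highest mean levels of Fcgr1, Fcgr3 and Fcer1g of all classes with at least 10 cells. For Fcer1g the range of control microglia overlapped with those of the joint class at day 3 and in ciliary body. Fcgr1, the high-affinity receptor, averaged 364 ± 5.23 CPM in control microglia, 478 ± 69.1 at day 3 and 454 ± 34.2 at day 7. The next class in order was the joint class at day 3 with 200.3 ± 17.7 CPM, and dendritic cells came last with 65.9 ± 62.1 CPM at day 7 and 59.0 ± 29.2 at day 3. The ranges of mean ± SD of control and lesioned microglia did not overlap for Fcgr1, nor did those of control microglia and the joint class at day 3. With 2 pairs an SD is uncertain, and the single libraries of control and lesioned microglia did overlap. They ran from 305 to 430 CPM in control, 402 to 541 at day 3 and 341 to 504 at day 7.

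Fcgr3, a receptor for immune complexes, was the most abundant Fcgr transcript of microglia. It averaged 1066 ± 161 CPM in control microglia, 924 ± 140 at day 3 and 1090 ± 227 at day 7, ranges that overlapped. A lower step of 4 classes with overlapping ranges followed, from 381 ± 133 CPM in the joint class of the ciliary body to 342 ± 36.5 in cornea macrophages. Dendritic cells and the joint class at day 7 lay below 100 CPM, with 85.9 ± 40.1 in dendritic cells at day 3, 56.8 ± 26.5 in the joint class at day 7 and 33.0 ± 15.6 in dendritic cells at day 7.

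Fcgr4 had another order. Microglia at day 3 (279 ± 45.9 CPM) and day 7 (246 ± 84.9) came first, then macrophages of the cornea (177 ± 11.2) and the ciliary body (145 ± 25.6) and the joint class of the ciliary body (131 ± 34.6). Control microglia, at 71.4 ± 14.3 CPM, stood seventh of 10, between the joint class at day 3 (78.9 ± 78.4) and dendritic cells at day 3 (69.8 ± 35.4), and these ranges overlapped. Only the step down to the joint class (14.2 ± 6.79) and the dendritic cells (5.50 ± 7.78) of day 7 left a gap between neighbouring ranges.

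Fcgr2b, the inhibitory receptor, averaged 497 ± 11.4 CPM in control microglia, 325 ± 71.9 at day 3 and 602 ± 87.7 at day 7. Macrophages held 319 ± 36.8 CPM in cornea and 364 ± 67.8 in ciliary body, ranges that overlapped with that of microglia at day 3. The joint class at day 7 was lowest with 61.6 ± 6.31 CPM. Fcer1g, the signalling chain, was the most abundant member in every class of at least 10 cells. It averaged 1687 ± 280 CPM in control microglia, 2298 ± 456 at day 3 and 2092 ± 229 at day 7, and was lowest in dendritic cells at day 7 (621 ± 53.7). The joint class held 1675 ± 359 CPM at day 3 and 1516 ± 221 in ciliary body, ranges that overlapped with that of control microglia.

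**Figure D1:**
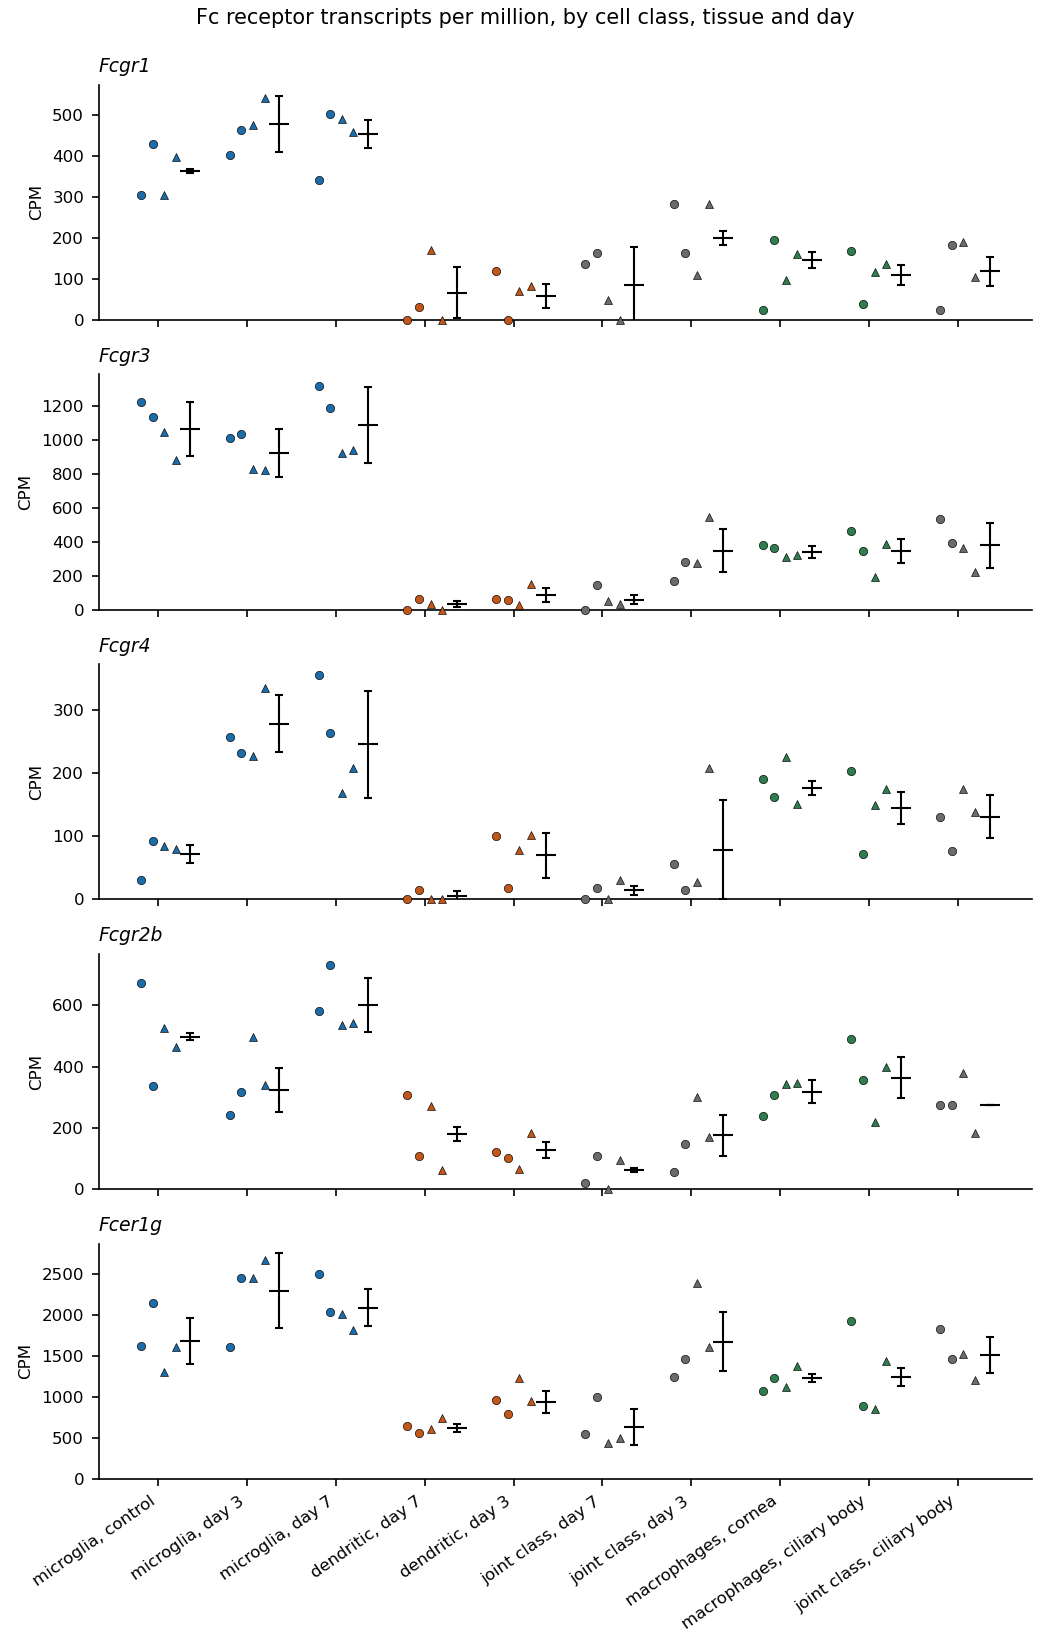
Level of each Fc receptor gene in CPM (vertical axis) by cell class and tissue or day (horizontal axis). Circles and triangles are single libraries of the first and the second library pair, and black marks are the mean ± SD of 2 pairs. Control microglia average 71.4 CPM of Fcgr4, against 279 at day 3 and 246 at day 7.

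Wells outside the annotation that held markers of other cells were taken as a gauge of background. Since cells were sorted for CD45, some of these wells may hold a leukocyte, which was not tested. In 74 retina wells with photoreceptor markers, Fcgr1 stood at 20.5 CPM, Fcgr3 at 46.1, Fcgr4 at 12.3, Fcgr2b at 40.0 and Fcer1g at 120.0. In 252 cornea wells with corneal epithelial markers the values were 7.65, 18.4, 11.4, 23.7 and 86.5 CPM in the same order. All 5 genes in all 3 microglia groups and both macrophage groups lay above both background values. Fcgr3 and Fcgr4 in dendritic cells at day 7 lay below the value of the retina wells (33.0 against 46.1 CPM and 5.50 against 12.3). They rest on 5 and 1 transcripts, so they cannot be told apart from those wells.

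The first comparison asked how microglia differed after the laser lesion. Fcgr4 was the only member called at day 3 against control by edgeR's quasi-likelihood test (Benjamini-Hochberg adjusted p under 0.05 over all genes), where 22.5% of all genes tested were called. It stood at 257, 232, 228 and 335 CPM in the day 3 libraries, against 30.6, 92.1, 84.7 and 79.5 CPM in the control libraries. Every day 3 library was above every control library, and Fcgr4 rose by 1.94 on the log2 scale (SE 0.40, adjusted p = 0.00126), a 3.85-fold difference. These values rest on 95 transcripts at day 3 and 16 in control. The call held in 13 of 13 alternatives.

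Fcgr4 was also the only member called at day 7 against the same control libraries, where 1.82% of all genes were called. The day 7 libraries held 356, 264, 169 and 209 CPM, all above the 4 control libraries given above. The rise was 1.77 on the log2 scale (SE 0.41, adjusted p = 0.0235), and the call held in 9 of the 12 alternatives that gave an adjusted p. It missed the threshold without the first pair of day 7 libraries (1.38, adjusted p = 0.231), without the second pair of control libraries (2.11, adjusted p = 0.0544), and with thinned sums (2.16, adjusted p = 0.0526). DESeq2 gave it no adjusted p. Between the lesioned groups, Fcgr4 did not pass the test at day 7 against day 3 (-0.18, SE 0.31, adjusted p = 0.756).

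Summed levels of marker lists of other cells differed between these groups, though the lists are not exclusive to the cells they are named after. The summed level of the monocyte markers in annotated microglia was 46 to 61.2 CPM in control (4 of 7 detected, Chil3, Vcan and Hp at 0), 860 to 1120 CPM at day 3 (5 of 7, Vcan and Hp at 0) and 230 to 293 CPM at day 7 (4 of 7, Chil3, Vcan and Hp at 0). That of the microglia markers was 24407 to 27821 CPM in control, 13233 to 15441 at day 3 and 17138 to 17314 at day 7. Border macrophage markers summed to 123 to 163 CPM in control (3 of 9 detected), 63.9 to 115 at day 3 (4 of 9) and 189 to 257 at day 7 (7 of 9), with Cd163 and Folr2 at 0 in each group. Neutrophil markers held 781 to 829 CPM in control, 210 to 344 at day 3 and 800.5 to 832 at day 7, with at most 3 of 6 detected and Ly6g and Retnlg at 0 throughout. Muller glia and astrocyte markers summed to 1701 to 2449 CPM in control and 1170 to 4536 at day 3. Gfap was at 0 in both (5 of 6 detected). At day 7 these markers summed to 10733 to 12109 CPM (6 of 6). This list holds Apoe and is not specific to glia here. It summed to 13292 to 19187 CPM in ciliary body macrophages and 8218 to 10511 in cornea macrophages. All 10 photoreceptor markers were detected in each group. They summed to 4229 to 7295 CPM in control, 1928 to 3155 at day 3 and 7973 to 9403 at day 7. Corneal epithelial markers summed to 0 to 2339 CPM in control (8 of 8 detected) and 456 to 999.9 at day 7 (8 of 8). At day 3 these summed to 4.58 to 54.8 CPM (3 of 8). The median share of mitochondrial transcripts per cell was 8.91% in control, 12.9% at day 3 and 10.5% at day 7. The part of these shifts in the Fc receptor differences was not tested. Only microglia that the authors' second call, from gene signatures, also named so (118 of 120 in control, 60 of 81 at day 3, 99 of 113 at day 7) gave a rise of Fcgr4 of 2.08 at day 3 (adjusted p = 0.00127) and 1.82 at day 7 (adjusted p = 0.0276) by the same edgeR test.

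Fcgr4 differed between the authors' clusters of microglia, a description since the clusters were made from these cells. It was highest in cluster 6, at 370 CPM (95% exact Poisson interval 293 to 461), of which 39 of 47 cells came from day 3. Cluster 3 held cells of all 3 groups, with 56.8 CPM in its 29 control cells (11.7 to 166), 331 in its 12 day 3 cells (165 to 592) and 270 in its 41 day 7 cells (176 to 395). In cluster 5 the levels were 95.2 CPM in control (30.9 to 222), 112 at day 3 (41.0 to 243) and 156 at day 7 (50.8 to 365), intervals that overlapped. These intervals cover counting error only.

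Fcgr2b was the member that differed between the lesioned groups, where 9.45% of all genes were called at day 7 against day 3 in microglia. It stood at 583, 732, 538 and 543 CPM in the day 7 libraries, against 241, 317, 497 and 341 CPM in the day 3 libraries. Every day 7 library was above every day 3 library, and Fcgr2b rose by 0.87 on the log2 scale (SE 0.25, adjusted p = 0.0309). The call was lost under 7 of 13 alternatives, among them the DESeq2 test (0.86, adjusted p = 0.231), no filter on low counts (0.79, adjusted p = 0.173), and leaving out the first pair of day 3 libraries (0.63, adjusted p = 0.296) or of day 7 libraries (0.72, adjusted p = 0.221).

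Against control, Fcgr2b did not pass at day 3 (-0.55, SE 0.26, adjusted p = 0.131) or day 7 (0.32, SE 0.25, adjusted p = 0.640). At day 3 it was called in 1 of 13 alternatives, with single libraries as replicates (adjusted p = 0.0448). The control libraries held 672, 338, 525 and 465 CPM and overlapped with both lesioned groups. Fcer1g stood at 1610, 2456, 2451 and 2670 CPM in the day 3 libraries, against 1620, 2151, 1305 and 1612 CPM in the control libraries. The groups overlapped, and its difference of 0.50 (SE 0.20, adjusted p = 0.0714) missed the threshold, but was called without the first pair of control libraries (0.72, adjusted p = 0.0104) or of day 3 libraries (0.76, adjusted p = 0.0153). Its difference at day 7 against control was 0.36 (SE 0.20, adjusted p = 0.436).

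The other activating receptors were not called between any of these groups. The difference of Fcgr1 from control was 0.44 (SE 0.26, adjusted p = 0.218) at day 3 and 0.35 (SE 0.26, adjusted p = 0.609) at day 7. That of Fcgr3 was -0.17 (SE 0.22, adjusted p = 0.601) at day 3 and 0.09 (SE 0.22, adjusted p = 0.914) at day 7. At day 7 against day 3 the differences of Fcgr1, Fcgr3 and Fcer1g lay between -0.14 and 0.26. At an unadjusted p under 0.05, 3 of 5 members passed at day 3 against control, beside 1260 of all 3408 genes. At day 7 against control 1 member passed, beside 484 genes, and 1 at day 7 against day 3, beside 852. The median log2 difference of the 5 members was 0.44 at day 3 against control, 0.35 at day 7 against control and -0.09 at day 7 against day 3, beside medians of 0.03, 0.01 and 0.03 over all 3408 genes tested.

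**Figure D2:**
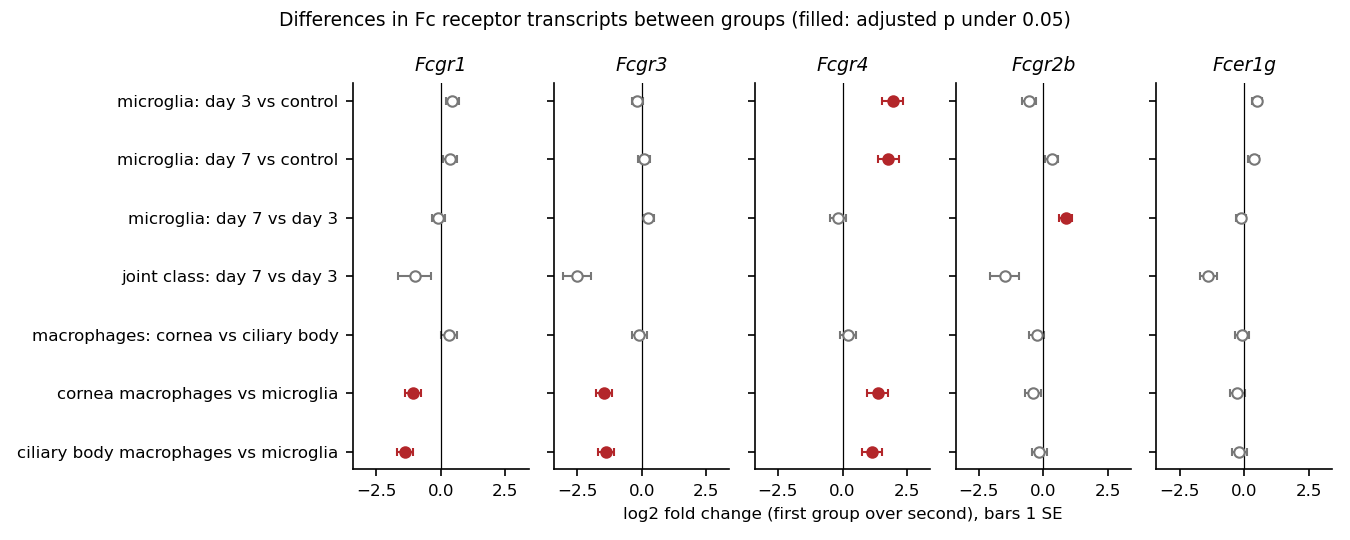
Log2 difference of each Fc receptor gene (horizontal axis), with bars of 1 SE, in each comparison between groups of cells, from edgeR fits over all genes. Filled points passed an adjusted p of 0.05. Fcgr4 lies at 1.94 for microglia at day 3 against control and at 1.77 for day 7 against control.

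The make-up of the receptor pool of microglia was also counted. Of the transcripts of the 4 Fcgr genes, Fcgr3 had a share of 52.3% in control microglia (of 415), 44.2% in those of day 3 (of 661) and 45.8% in those of day 7 (of 648). Fcgr4 accounted for 3.86% of the pool in control (95% exact binomial interval 2.22 to 6.19), 14.4% at day 3 (11.8 to 17.3) and 10.5% at day 7 (8.24 to 13.1). The Fcgr4 share was 2.90% and 4.33% in the control pairs, 12.5% and 15.3% in the day 3 pairs, and 11.5% and 8.71% in the day 7 pairs. The inhibitory Fcgr2b accounted for 25.3% of it in control (21.2 to 29.8), 16.9% at day 3 (14.2 to 20.03) and 25.2% at day 7 (21.9 to 28.7). Its share was 23.9% and 26.0% in the control pairs, 13.9% and 18.4% in the day 3 pairs, and 25.1% and 25.3% in the day 7 pairs. The day 3 pairs thus held the highest Fcgr4 shares and the lowest Fcgr2b shares of the 3 groups, in both pairs.

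**Figure D3:**
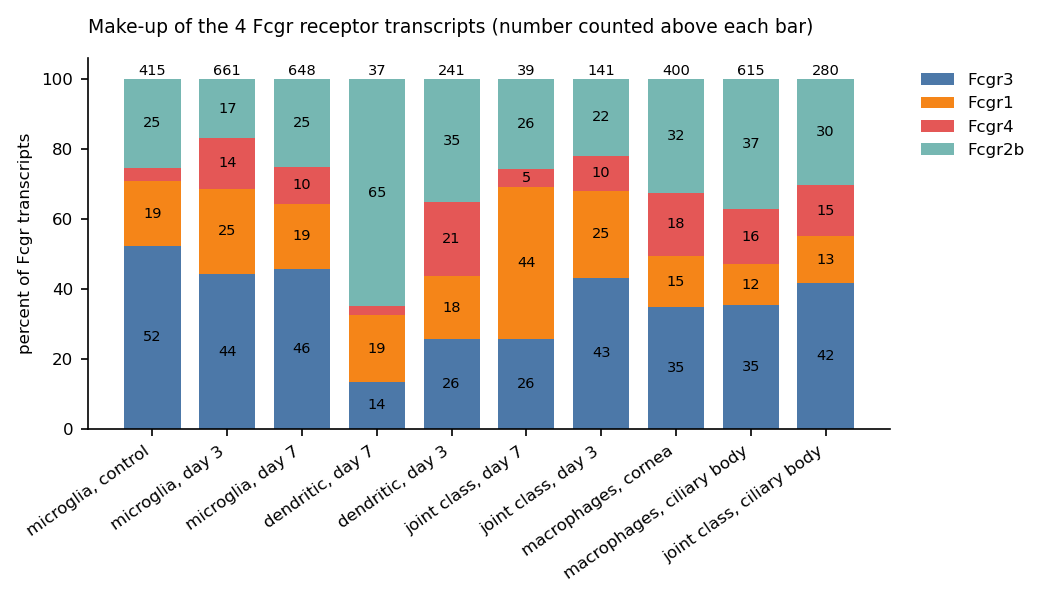
Share of each of the 4 Fcgr genes in the Fcgr transcripts (percent, vertical axis) by cell class and tissue or day (horizontal axis), with the number of transcripts counted above each bar. In microglia, Fcgr4 holds 3.86% of the control pool, 14.4% of that of day 3 and 10.5% of that of day 7, and Fcgr2b 25.3%, 16.9% and 25.2% in the same order.

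At the level of single cells, 109 of 120 control microglia held at least 1 Fcgr transcript, as did 78 of 81 at day 3 and 107 of 113 at day 7. Transcripts of at least 2 Fcgr genes were seen in 65.0% of control microglia, 84.0% at day 3 and 84.1% at day 7, and those of all 4 genes in 3, 20 and 19 cells in the same order. Depth differed with the group. Over the genes in the deposited retina table, median totals were 1579 transcripts per cell in control, 2742 at day 3 and 2207 at day 7. After thinning each cell to 1000 transcripts, which left out no cell, Fcgr4 was seen in 7.50% of control microglia (3.49 to 13.8), 22.2% at day 3 (13.7 to 32.8) and 20.4% at day 7 (13.4 to 29.0). Before thinning the shares were 10.8% in control, 49.4% at day 3 and 39.8% at day 7.

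Thinned shares were also taken for the other members. Fcgr1 was seen in 25.8% of control microglia (18.3 to 34.6), 42.0% at day 3 (31.1 to 53.5) and 26.5% at day 7 (18.7 to 35.7). These intervals overlapped, and the pattern depended on the depth. Thinned to 500 transcripts, the Fcgr1 shares were 15.8%, 22.2% and 18.6% in the same order. Thinned to 2000, which left out cells of each group, they were 53.1%, 66.1% and 63.1%. At 1000 transcripts, Fcgr3 was seen in 59.2%, 51.9% and 62.8%, and Fcgr2b in 38.3%, 34.6% and 46.0%, in the same order. At that depth Fcer1g was seen in 80.8% of control microglia, 90.1% at day 3 and 89.4% at day 7. In the photoreceptor wells thinned to 1000 transcripts as well (63 kept, 11 left out), Fcgr4 was seen in 4.76% (0.993 to 13.3), an interval that holds the share of control microglia. Without thinning, the share was 10.8% in the photoreceptor wells, whose median totals ran from 940 to 27708 transcripts over the libraries. The thinned Fcgr4 shares of control microglia and those wells rest on 9 of 120 cells and 3 of 63 wells. Their difference was not tested. The level of Fcgr4 was 71.4 CPM in control microglia and 12.3 CPM in those wells.

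**Figure D4:**
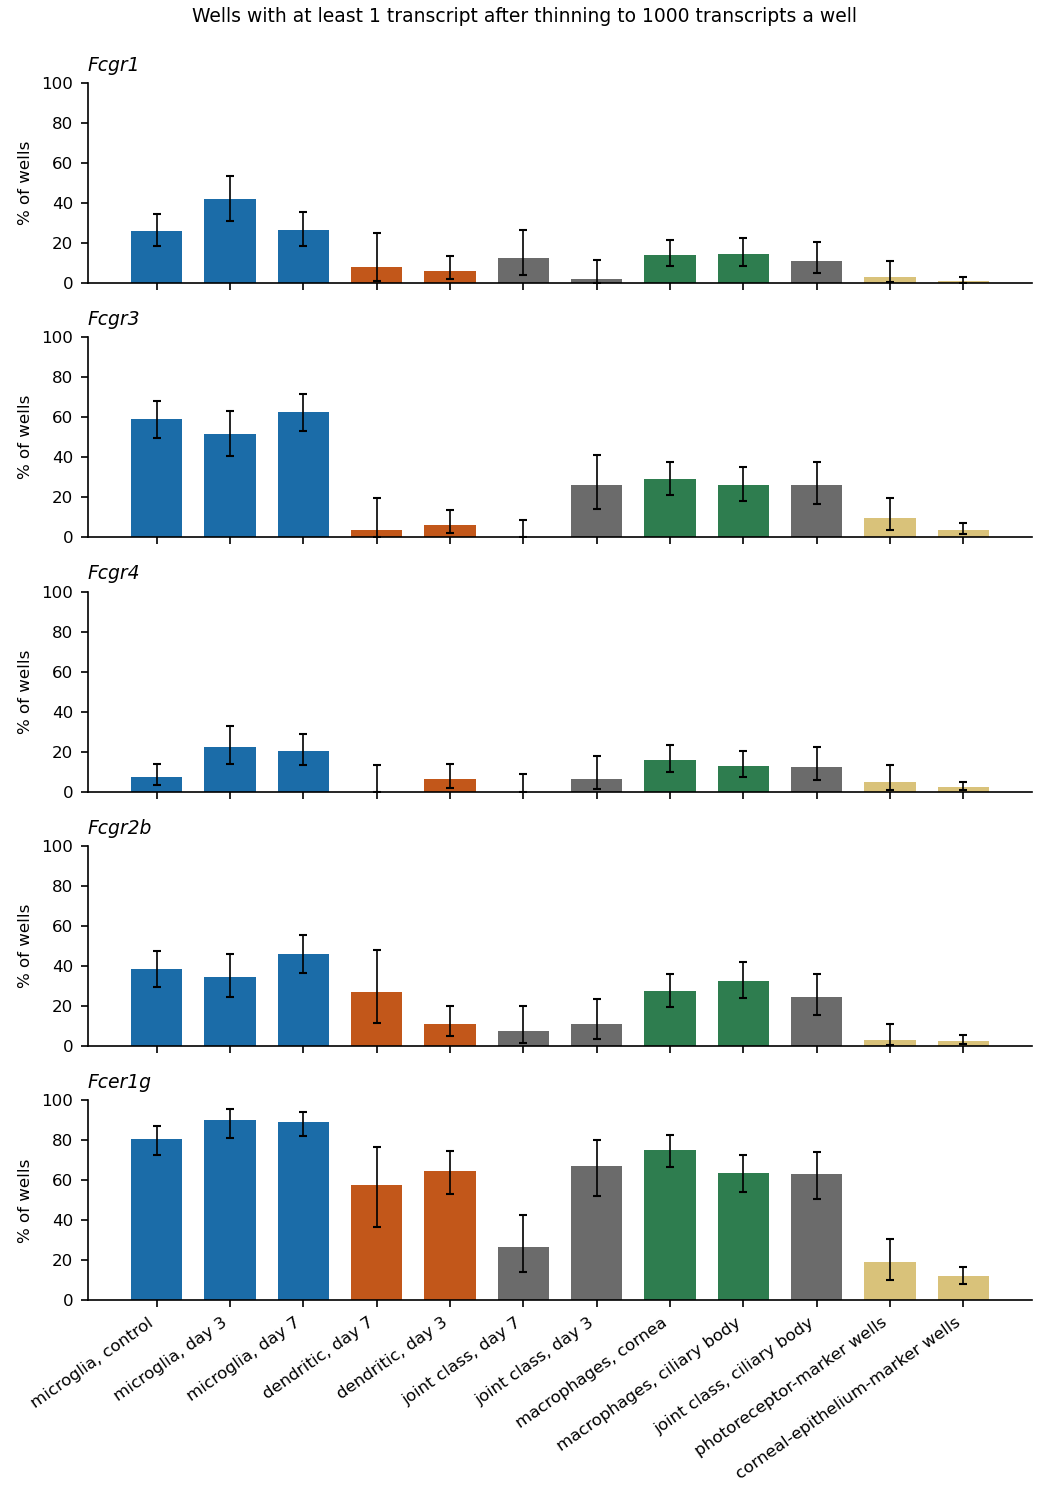
Percent of cells with at least 1 transcript of each Fc receptor gene after thinning to 1000 transcripts per cell (vertical axis), by cell class and tissue or day, with 95% exact binomial intervals. Fcgr4 is seen in 7.50% of control microglia, 22.2% at day 3 and 20.4% at day 7.

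Related genes fixed by role were read in the same fits. Of 22 genes of ITAM and ITIM signalling, 15 were tested in microglia, and 2 rose at day 3 against control while none fell, beside 407 higher and 359 lower of all 3408 genes. Rac2, a GTPase of phagocyte oxidase and motility, was among them (1.68, adjusted p = 0.000868). The median of the list was -0.12, beside 0.03 over all genes. None of the 15 was called at day 7 against control or against day 3. Of 17 other immunoglobulin receptors and relatives, 3 were tested. Cd300lf, a receptor with inhibitory motifs, averaged 114 ± 6.21 CPM at day 3 and 73.3 ± 16.0 CPM at day 7, against 7.66 ± 10.8 CPM in control, from 37, 20 and 1 transcripts. It passed at day 3 (adjusted p = 0.00143) and day 7 (adjusted p = 0.0493).

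Fcrls, an Fc receptor-like gene typical of microglia, averaged 904 ± 40.0 CPM at day 3, against 423 ± 35.6 CPM in control, and rose by 1.10 (adjusted p = 0.00160). At day 7 it stood at 458 ± 3.18 CPM and fell by 0.97 against day 3 (adjusted p = 0.00777). Of 12 receptors that share the Fcer1g chain only 1 was tested in microglia, and it was not called. Of 12 phagosome and phagocyte oxidase genes 8 were tested, and Rab7, a GTPase of late endosomes, rose at day 3 against control (1.03, adjusted p = 0.0332).

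In dendritic cells only Fcgr2b and Fcer1g passed the filter on low counts. Neither was called at day 7 against day 3, where 0.170% of all genes were called. Fcer1g stood at 652, 556, 615 and 739 CPM in the day 7 libraries, against 963, 790, 1234 and 950 CPM in the day 3 libraries. Every day 7 library was below every day 3 library, a separation not set against that of all genes. The difference of -0.54 (SE 0.24, adjusted p = 0.458) did not pass. Fcgr2b averaged 181 ± 23.1 CPM at day 7 and 128 ± 26.8 CPM at day 3, a difference of 0.48 (SE 0.36, adjusted p = 0.634). It made up 64.9% of the 37 Fcgr transcripts of day 7 (47.5 to 79.8) and 35.3% of the 241 of day 3 (29.2 to 41.7). Fcgr4 had 1 transcript in the 26 cells of day 7 and 51 in the 82 cells of day 3. Of the day 3 dendritic cells, 28 of 82 held Fcer1g and no Fcgr transcript.

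By the signature call, 40 of 82 dendritic cells of day 3 kept that name and 36 had none. The named cells held 20.5 CPM of Fcgr1 (95% exact Poisson interval 7.54 to 44.7) and 82.2 of Fcgr2b (52.7 to 122), and the unassigned ones 107 of Fcgr1 (73.2 to 151) and 180.5 of Fcgr2b (136 to 236). All 5 genes were lower in the named cells, a description since the call rests on gene signatures read in these same cells. Photoreceptor markers summed to 1017 CPM in the named cells and 4134 CPM in the unassigned ones, and their part in this difference was not tested. In bulk sums of a class, fewer cells of a type and less RNA per cell cannot be told apart.

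The joint class was compared between the same days. No member was called at day 7 against day 3, where 0.164% of all genes were called, although 3 of the 4 members tested had an unadjusted p under 0.05, beside 246 of all 1834 genes. Fcgr3 stood at 0, 146, 48.4 and 31.4 CPM in the day 7 libraries, against 170, 281, 275 and 548 CPM in the day 3 libraries. Every day 7 library was below every day 3 library, with a difference of -2.49 (SE 0.54, adjusted p = 0.108). Fcer1g stood at 548, 1005, 436 and 503 CPM in the day 7 libraries, against 1249, 1466, 2397 and 1608 CPM in the day 3 libraries. These did not overlap either, and the difference was -1.40 (SE 0.33, adjusted p = 0.120). For Fcgr3 and Fcer1g alike, the separation of libraries was not set against that of all genes. Both were called under other settings, Fcgr3 in 5 of 11 and Fcer1g in 7 of 12, for example without a filter on low counts (adjusted p = 0.00346 for Fcgr3 and 0.00319 for Fcer1g).

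Whether the days differed by another amount in this class than in microglia was tested directly, with the library pair as a block. The day 7 against day 3 difference was lower in the joint class for 3 of 5 members, where 2.90% of all genes were called. It was lower by 2.90 on the log2 scale for Fcgr3 (log2 difference -2.90, SE 0.54, adjusted p = 0.00129), and the values were -2.50 for Fcgr2b (SE 0.58, adjusted p = 0.0107) and -1.38 for Fcer1g (SE 0.29, adjusted p = 0.00481). The call of Fcgr3 held in 11 of 11 alternatives. That of Fcgr2b was lost with DESeq2 (adjusted p = 0.0784) and without the second day 3 pair (adjusted p = 0.0995) or the first day 7 pair (adjusted p = 0.114), and that of Fcer1g with DESeq2 (adjusted p = 0.0922) and without the second day 7 pair (adjusted p = 0.0926). Of the signalling genes, Syk, the kinase that binds the ITAM (-4.20, adjusted p = 0.00396), and Tyrobp, another ITAM adaptor (-1.44, adjusted p = 0.00553), differed in the same direction. So did the oxidase gene Ncf1 (-1.63, adjusted p = 0.0310). Between dendritic cells and microglia, no member passed the same test, where 0.335% of all genes were called, and 2 of 5 had an unadjusted p under 0.05, beside 339 of all 3586 genes.

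The mix of cells in the joint class moved with the day. T cell markers summed to 1680 to 2763 CPM at day 7 and 153 to 459 CPM at day 3, with 7 of 8 detected at both days and Trbc2 at 0. NK cell markers, all 8 detected, summed to 1067 to 1967 CPM at day 7 and 270 to 818 CPM at day 3, and monocyte markers, all 7 detected, to 3606 to 4391 CPM at day 7 and 2865 to 5549 CPM at day 3. Neutrophil markers, 4 of 6 detected at both days, summed to 57.1 to 132 CPM at day 7 and 141 to 2221 CPM at day 3, and Retnlg was at 0 at both. Dendritic cell markers summed to 419 to 557 CPM at day 7 (7 of 9) and 762 to 1280 CPM at day 3 (8 of 9). The signature call named 32 of 41 cells lymphocytes at day 7, and 15 of 46 lymphocytes and 11 monocytes at day 3. The 11 monocytes of day 3 held 651 CPM of Fcgr3 (433 to 941), its 15 lymphocytes 242 (132 to 405), and the 32 lymphocytes of day 7 held 16.8 (2.03 to 60.6). Levels split by the signature call are again a description. The part of the cell mix in the differences between days was not tested.

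The last comparisons set macrophages of the cornea and the ciliary body against each other and against control microglia of the same table. Between cornea and ciliary body no member was called, where 3.55% of all genes were called, and none had an unadjusted p under 0.05. Fcgr3 stood at 381, 364, 311 and 319 CPM in the cornea libraries, against 464, 349, 193 and 386 CPM in the ciliary body libraries. The libraries overlapped for every member, and the log2 differences ran from -0.26 for Fcgr2b (SE 0.29) to 0.33 for Fcgr1 (SE 0.31). One related receptor differed, since Clec4n, a lectin that signals through the Fcer1g chain, averaged 149 ± 42.9 CPM in cornea and 27.8 ± 23.0 CPM in ciliary body (2.25, adjusted p = 0.0198). Fcrls was lower in cornea (-1.40, adjusted p = 0.0381).

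Against control microglia, 3 of 5 members were called in cornea macrophages, where 33.1% of all genes were called, and the same number in ciliary body macrophages, where 29.2% were. The comparisons share the microglia libraries, and tissue and cell class differ together, so their parts cannot be told apart. Fcgr3 held 1338, 1181, 1072 and 904 CPM in the microglia libraries, above every macrophage library. It was lower by 1.46 on the log2 scale in cornea (log2 difference -1.46, SE 0.30, adjusted p = 0.00190) and the value was -1.38 in ciliary body (SE 0.30, adjusted p = 0.00259). The ciliary body comparison lost the call without the second ciliary body pair (-0.98, adjusted p = 0.0601).

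Fcgr1 stood at 23.8, 194, 96.6 and 160 CPM in cornea and 167, 39.4, 116 and 137 CPM in ciliary body macrophages, against 268, 447, 322 and 379 CPM in microglia. No macrophage library reached the microglia libraries, and the log2 differences were -1.07 in cornea (SE 0.31, adjusted p = 0.0154) and -1.40 in ciliary body (SE 0.31, adjusted p = 0.00279). The cornea call was lost in 5 of 11 alternatives, with adjusted p-values up to 0.298 (no filter on low counts, -0.74). The ciliary body call was lost in 2, without the filter (adjusted p = 0.0564) and without the second microglia pair (adjusted p = 0.0515).

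Fcgr4 was higher in macrophages. It stood at 191, 163, 225 and 151 CPM in cornea and 204, 72.3, 149 and 176 CPM in ciliary body, against 29.7, 95.8, 89.3 and 89.3 CPM in microglia. The cornea libraries were all above the microglia libraries, whereas 1 ciliary body library lay among them. Fcgr4 rose by 1.36 on the log2 scale in cornea (SE 0.39, adjusted p = 0.0150) and by 1.14 in ciliary body (SE 0.39, adjusted p = 0.0355). The cornea call was lost with DESeq2 (adjusted p = 0.0668) and without the first microglia pair (adjusted p = 0.0554), and the ciliary body call in 7 of 11 alternatives, with adjusted p-values up to 0.156.

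Fcgr2b and Fcer1g did not pass in either tissue, with Fcgr2b at -0.41 in cornea (SE 0.30, adjusted p = 0.314, but -1.01 and adjusted p = 0.0372 with thinned sums) and -0.16 in ciliary body (SE 0.30, adjusted p = 0.729). In the pool of Fcgr transcripts, Fcgr3 made up 34.8% in cornea macrophages, 35.3% in ciliary body macrophages and 53.2% in control microglia of this table. Fcgr2b made up 32.5% in cornea (27.9 to 37.3) and 37.2% in ciliary body (33.4 to 41.2), against 24.8% in microglia (20.8 to 29.2). Fcgr4 made up 18.0% in cornea (14.4 to 22.1) and 15.6% in ciliary body (12.8 to 18.7), against 4.06% in microglia (2.38 to 6.42).

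Among the related genes, Inpp5d, the phosphatase recruited by the inhibitory receptor, was lower in macrophages than in microglia, with a log2 difference of -1.50 in cornea (adjusted p = 0.00183) and -1.12 in ciliary body (adjusted p = 0.00879). Cybb, the catalytic subunit of the phagocyte oxidase, was higher, with 3.72 in cornea (adjusted p = 1.85e-06) and 3.62 in ciliary body (adjusted p = 2.49e-06). Of the 22 signalling genes, 17 were tested. In cornea none was higher and 3 were lower, beside 813 higher and 745 lower of all 4705 genes. In ciliary body 2 were higher and 1 lower, beside 780 higher and 592 lower. Corneal epithelial markers, all 8 detected, summed to 23971 to 29903 CPM in cornea macrophages, against 0 to 2529 CPM in microglia. Their part in these differences was not tested, and in the wells with corneal epithelial markers all 5 Fc receptor genes were below their level in macrophages.

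The authors' clusters of macrophages differed in these genes, again as a description. Fcgr3 stood at 735 CPM in cluster 7 (95% exact Poisson interval 589 to 905; 21 of 29 cells from ciliary body) and 596 in cluster 8 (454 to 769), but at 128 in cluster 1 (82.9 to 189; 25 of 26 cells from ciliary body) and 129 in cluster 3 (90.1 to 180; 33 of 56 cells from cornea). Fcgr2b ranged less over these clusters, from 266 CPM in cluster 1 to 536 in cluster 8. Dendritic cell markers summed to 184 CPM in cluster 7 and 263 in cluster 8, but to 1671 in cluster 1 and 1881 in cluster 3. Border macrophage markers summed to 2130 CPM in cluster 7 and 2894 in cluster 8, but to 220.3 in cluster 1 and 540.0 in cluster 3. The low-Fcgr3 clusters thus carried more of the dendritic cell markers and less of the border macrophage markers than the high-Fcgr3 clusters. The lists hold different genes, so their sums are not ranked against each other.

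Over 21 sums of class by tissue or day in library pairs, the members were compared with 3749 genes of at least 50 CPM by Pearson's r of log2(CPM + 10), as a description of sums that share libraries and depth. Among themselves, Fcer1g and Fcgr3 were most alike (r = 0.92) and Fcgr2b and Fcgr4 least (r = 0.52). The genes outside the family most like Fcgr3 were Csf1r, the receptor that macrophages need for survival (r = 0.94), Itgam (0.92) and Ptgs1 (0.92). Those most like Fcgr2b were Trf (0.93), Sepp1 (0.91) and C1qa (0.88), and those most like Fcgr1 were Plod1 (0.93), Adam15 (0.93) and Lamp1 (0.92). For Fcer1g they were Adam15 (0.92), Itgam (0.90) and Lrp1 (0.89). Fcgr4 had the lowest values, with March6 (0.84), G530011O06Rik (0.83) and Cpd (0.82).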

How the data were processed

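Single cells were sequenced by mCEL-Seq2, per the labels' protocols, and reads were aligned with BWA 0.6.2-r126, per the submitters' processing notes. Genome build, annotation and the rules of counting: not given in the sources used here. The deposited library and unnormalized tables hold estimated counts of transcripts per well. The deposited normalized tables, fractions of a well's total, were not used. The deposited annotation tables hold other values, the authors' class and cluster of each well. Wells were matched to libraries by equal values, or by name for 9 cornea wells whose columns were not used, and the deposited unnormalized tables lack genes that made up 37.2% (retina) and 38.9% (eye) of the transcripts of annotated wells. Those genes were left out of the levels, the median totals per cell or well and the main fits.

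The members and lists were chosen with earlier results of these data known. Estimated counts were summed over the annotated cells of a class in a library pair and rounded. Sums were tested with edgeR 4.0.16 (filterByExpr, TMM, robust quasi-likelihood fit) in R 4.3.3, with Benjamini-Hochberg adjustment over all genes and a threshold of 0.05. The fits were tested on simulated data. The SE was derived from the unshrunk log2 ratio and the F statistic, as their quotient with sqrt(F). All 829 annotated wells entered, of which 57 had under 1000 transcripts or over 25 percent mitochondrial transcripts. No doublet caller was run on these cells, which were sorted into wells. Background wells lie outside the annotation, hold at least 1000 transcripts and at least 5 percent marker transcripts.

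Text names the members, up to 4 called genes of each list with the smallest adjusted p, and the 3 genes most like each member; some listed genes are not reported here. Alternatives were DESeq2 1.42.0, other size factors, no filter, single libraries, passing wells, the signature call, thinned sums, the prefix as a replicate block, each pair left out, and, chosen after seeing the data, all genes of the library tables. Fcgr2b and Fcgr3 share sequence, with 76 of 1489 and 5 of 960 words of 31 bases near their 3′ ends found in another member, so reads between them are uncertain. Intervals cover counting error only.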

Additional observations from a re-analysis of the deposited data

Results flagged for a closer look

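Results are given here where a difference between classes was itself tested, or where wells outside the annotation held a member's transcripts. The day 7 against day 3 difference in the joint monocyte, lymphocyte and granulocyte class was apart from that in microglia for Fcgr3 (-2.90), Fcgr2b (-2.50) and Fcer1g (-1.38 on the log2 scale).

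Fcer1g was also seen in passing wells that the authors did not annotate and that held few markers of photoreceptors or corneal epithelium. It was found in 72.0% of 82 such wells of the ciliary body, 58.5% of 82 of the cornea and 59.3% of 297 of the retina. A count of 0 would allow 3.66% in either of the first tissues and 1.01% in retina. In wells with photoreceptor or corneal epithelial markers the shares were 48.6% of 74 and 57.5% of 252. Fcer1g stood at 905, 341 and 791 CPM in the unannotated wells, in the same order of tissues, and at 120.0 and 86.5 CPM in the marker wells.

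In 45 groups of 4 libraries, no library of a member stood apart by Dixon's criterion for 4 values.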

How the results depend on the processing

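In microglia, 1 member was called at day 3 against control, 2 with single libraries as replicates (Fcgr2b also), and 1 to 2 when a pair was left out. At day 7 against control 1 was called, 0 by DESeq2 (which gave Fcgr4 no adjusted p) or after thinning the sums (Fcgr4 adjusted p = 0.0526), and 0 to 1 with a pair left out. At day 7 against day 3 1 was called, 0 with DESeq2, no filter on low counts, the signature call or thinned sums, and 0 to 1 with a pair left out. In the joint class 0 were called, 2 without the filter, with the prefix as a replicate block and with thinned sums, 1 with single libraries, and 0 to 3 with a pair left out. Libraries of the same prefix did not deviate together in every comparison (correlations of -0.0772 to 0.194), and the fit with the prefix as a replicate block changed no other count of members by over 1.5 times. In cornea macrophages against microglia 3 were called, 4 with thinned sums (Fcgr2b also, -1.01, adjusted p = 0.0372), 1 by DESeq2 and 2 with any pair left out, and in ciliary body macrophages 3, or 1 to 3 with a pair left out. The difference between the joint class and microglia was called for 3 members, 1 by DESeq2, and 2 to 3 with a pair left out. No member was called under any setting in dendritic cells, between macrophages, or between dendritic cells and microglia. The cause of these changes was not tested.

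Changes of sign were seen only for values that were not called. Passing wells gave 0.015 for Fcgr1 at day 7 against day 3 in microglia. Thinned sums gave 0.12 for Fcgr1 and 0.071 for Fcgr4 in that comparison, -0.14 for Fcgr3 at day 7 against control, 0.0045 for Fcgr3 between macrophages, and 0.62 for Fcgr1 and 0.20 for Fcgr2b between dendritic cells and microglia, where DESeq2 gave 0.033 for Fcgr1. Without the filter Fcer1g was 0.081 in cornea and 0.16 in ciliary body macrophages, and Fcgr2b 0.18 in ciliary body. With a pair left out, Fcgr3 in microglia ran from -0.28 to 0.037 at day 3 and from -0.096 to 0.30 at day 7 against control. At day 7 against day 3, Fcgr1 ran from -0.27 to 0.084, Fcgr4 from -0.59 to 0.079 and Fcer1g from -0.38 to 0.093. Between macrophages, Fcgr3 ran from -0.34 to 0.20, Fcgr2b from -0.49 to 0.0081 and Fcer1g from -0.23 to 0.071. In ciliary body macrophages against microglia, Fcgr2b ran from -0.28 to 0.22 and Fcer1g from -0.24 to 0.098, and between dendritic cells and microglia Fcgr1 ran from -1.34 to 0.79. Of all tests of single members under the alternatives, 455 kept direction and side of the threshold, 32 lost the call, 17 gained it and 29 changed sign. Over all genes, the calls at day 3 against control numbered 766, and 227 with DESeq2.

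Depth limits the rarer members most, since control microglia held 16 transcripts of Fcgr4, and dendritic cells and the joint class at day 7 held 1 and 2.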
